A study of Mus musculus with 12 samples.

Results

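The heat shock chaperones described here are 10 genes in 3 roles: the inducible Hsp70 genes Hspa1a and Hspa1b, the constitutive chaperones Hspa2, Hspa5, Hspa8, Hspa9, Hspd1 and Hspe1, and the heat shock factors Hsf1 and Hsf2. Their probes were taken by gene name, or by the RefSeq accession that maps to it. That gave 19 of the 41174 probes on the array, for 9 of the 10 genes and of 22410 named genes in all, since no probe carried the name of Hspa1b. Levels were measured in 12 single blastomeres, both cells of each of 6 embryos of CF-1 mice, split at the 2-cell stage about 36 h post coitus. The embryos came from natural matings and were flushed from the oviduct. Each cell was pressed out through a slit in the zona pellucida with a glass rod, and its RNA was amplified in 2 rounds before hybridisation. The embryos of experiment 1 are called pairs D, I and L, those of experiment 2 pairs D, G and H, and the letter D stands for a different embryo in each. No group was treated and no unsplit embryo is among the samples. The labels number the cells of an embryo 1 and 2 without saying what the numbers stand for.

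Hsp70 proteins bind unfolded stretches of other proteins, and heat shock factor 1 switches on their inducible genes when unfolded proteins accumulate. In the mouse embryo the inducible Hsp70 genes are also transcribed without heat, at the start of genome activation, and are among the best known early products of the embryonic genome. Heat shock factor 1 is laid down in the oocyte, and embryos of mothers that lack it fail in early development.

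The promoters of these genes differ in the stress elements they carry. RefSeq sequence of assembly GRCm38.p6 was given for 7 of the 10 genes, as 250 bases before the transcription start. The 3 printed here are Hspa1a of the inducible genes, Hspe1, which with Hspd1 held the most heat shock elements, and Hspa5 of the endoplasmic reticulum. Each is written 5′ to 3′ on the strand of the gene, and capitals mark a heat shock element in the first and second and an endoplasmic reticulum stress element in the third. The motifs were chosen after the sequences had been seen. Hspa1a lies on the minus strand at chr17:34972157-34972406, Hspe1 on the plus strand at chr1:55087898-55088147, and Hspa5 on the plus strand at chr2:34771840-34772089.
Hspa1a: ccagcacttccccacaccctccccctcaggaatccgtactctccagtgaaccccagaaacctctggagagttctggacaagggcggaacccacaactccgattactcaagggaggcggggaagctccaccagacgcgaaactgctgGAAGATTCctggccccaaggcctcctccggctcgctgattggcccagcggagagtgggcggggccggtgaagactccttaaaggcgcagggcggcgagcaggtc
Hspe1: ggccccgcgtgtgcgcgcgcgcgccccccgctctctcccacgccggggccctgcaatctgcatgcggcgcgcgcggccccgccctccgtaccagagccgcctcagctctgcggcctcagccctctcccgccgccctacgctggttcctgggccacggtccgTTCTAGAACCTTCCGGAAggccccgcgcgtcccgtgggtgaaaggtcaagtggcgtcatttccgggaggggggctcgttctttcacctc
Hspa5: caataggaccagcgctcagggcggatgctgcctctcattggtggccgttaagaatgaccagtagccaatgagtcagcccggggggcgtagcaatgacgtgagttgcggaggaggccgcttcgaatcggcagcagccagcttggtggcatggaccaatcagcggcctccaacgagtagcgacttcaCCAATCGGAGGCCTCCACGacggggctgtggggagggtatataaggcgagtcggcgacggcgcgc

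A heat shock element was searched as TTCNNGAA or GAANNTTC, each of which reads the same on both strands. One or the other was found in 12.8% of 32851 promoter windows of the same length. Hspa1a held 1, starting 104 bases before the start. Hspa1b, its neighbour on the chromosome, held the same one, and the pair matched at 247 of 250 bases. Hspe1 held 3 that overlap each other, starting 89, 84 and 79 bases before its start. Hspd1 is transcribed in the opposite direction from the same stretch of DNA, and 1 of its windows held the same 3 elements. Hspa5 held no heat shock element and 1 endoplasmic reticulum stress element, a CCAAT and a CCACG separated by 9 bases and searched on both strands, 65 bases before its start. That motif was found in 0.113% of the windows. The windows of Hspa2 and Hsf2 held neither motif. A match of letters is a description and does not show that a factor was bound.

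All values below are log2 of an array's signal divided by its 75th percentile, so that 0 is the signal of that percentile, and the lowest value a probe can take is the floor of -4.12. Signals of different probes are not compared, and the value of cell 1 of an embryo is given before that of cell 2. Of the 19 probes, 10 were well above background on all 12 arrays, and they stand for 7 genes. Another 8 were so on 6 to 11 arrays, and 1, of Hsf2, on fewer than 6, so 18 were tested. None was saturated. A gene with several probes is led here by the one with the highest mean.

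The arrays themselves differed. Between 22.1% and 78.8% of the spots on an array were well above background. Experiment 1 was scanned in 2 channels, with its signal in Cy5, and experiment 2 in 1 channel, Cy3, on other slides. Experiment, dye, scan and slide therefore cannot be told apart, although the labels give Cy3 throughout. Markers of the labelled tissue were detected. Of 11 oocyte and early embryo markers on the array, 9 to 11 were well above background in every cell, and of 8 genome activation markers 7 or 8 were. The summed signal of the oocyte and early embryo markers was 52.4 to 94.2 in experiment 1 and 56.7 to 80.8 in experiment 2. Markers of stroma, oviduct and blood cells moved with the experiment in summed signal. The summed signal of 10 stroma and smooth muscle markers was 12.4 to 96.7 in experiment 1 and 0.574 to 1.07 in experiment 2. The sum of 10 oviduct epithelium markers was 7.51 to 56.4 against 0.577 to 1.98, and that of 9 blood and macrophage markers was 4.91 to 220.0 against 0.516 to 0.603. Of the blood markers, Ptprc was not well above background in any cell of experiment 1. Of 11 cumulus and granulosa markers, 0 to 4 were detected per cell in experiment 1 and 2 to 9 in experiment 2. Their sums were low and overlapped, 0.631 to 1.19 against 0.640 to 1.48. By count, blood and macrophage markers were 3 to 6 per cell against 1 to 8, so counts and sums differed. The part of other cells in the differences between experiments given below was not tested.

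**Figure D1:**
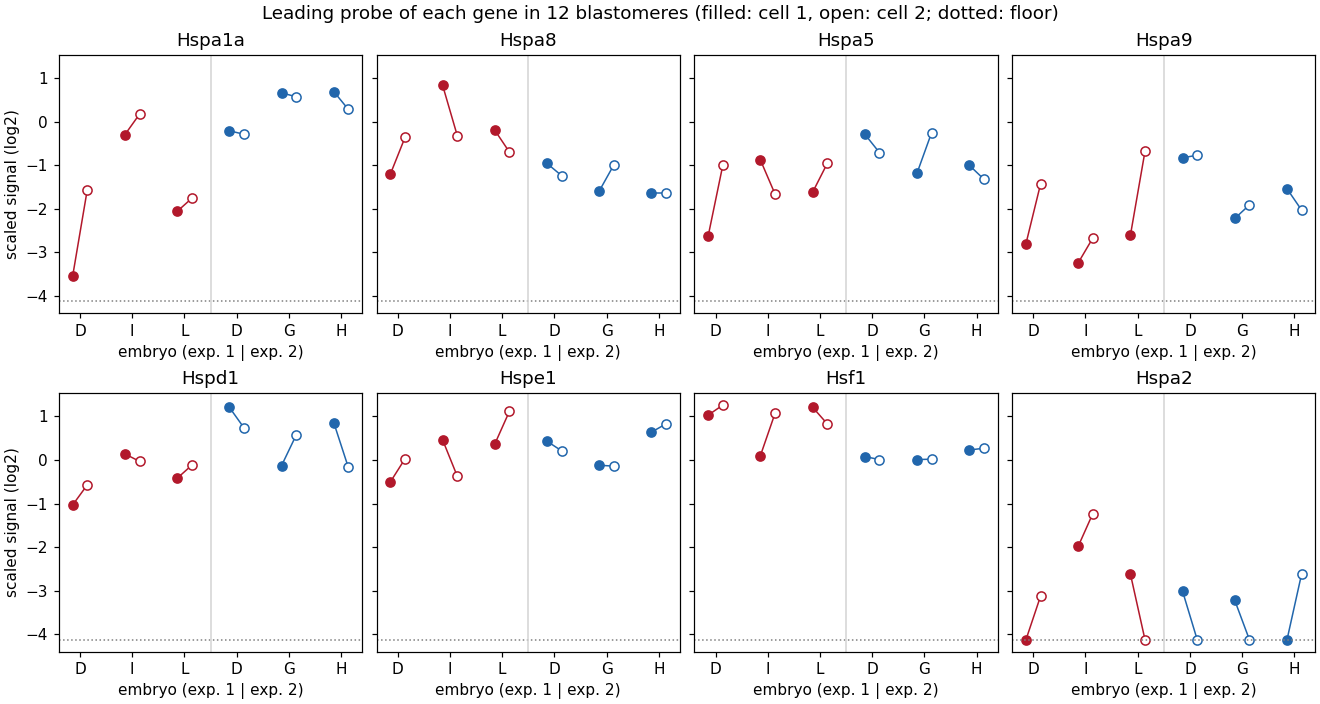
Scaled signal (log2) of the leading probe of 8 genes in each blastomere, with the cells of an embryo joined by a line; experiment 1 is red, experiment 2 blue, cell 1 filled, cell 2 open, and the dotted line is the floor of -4.12. Hspa1a spans -3.54 to 0.17 in experiment 1 and -0.29 to 0.69 in experiment 2, and Hsf1 sits near 0 in every cell of experiment 2.

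Hspa1a, the inducible Hsp70, had the widest spread of embryo means, pooled over the experiments, of the 7 members measured on all 12 arrays. In experiment 2 alone the SD of embryo means was 0.47 for Hspa1a and 0.67 for Hspa9. Pair D of experiment 1 had -3.54 and -1.56, pair I -0.30 and 0.17, and pair L -2.06 and -1.76. In experiment 2, pair D had -0.21 and -0.29, pair G 0.66 and 0.57, and pair H 0.69 and 0.28. Pair I was the high embryo of experiment 1. Its cell 2 lay among the cells of experiment 2 and its cell 1 just below the lowest of them, so the groups overlapped. The mean was -1.51 ± 1.32 (SD, n = 6 cells of 3 embryos) in experiment 1 and 0.28 ± 0.44 (SD, n = 6 cells of 3 embryos) in experiment 2. The difference of 1.79 ± 0.60 (SE), a 3.46-fold higher signal in experiment 2, missed the threshold in limma with an adjusted p of 0.0973. Where testing was limited to probes measured on all 12 arrays it passed, with an adjusted p of 0.0247. Over 23 alternatives the adjusted p ranged from 0.0247 to 0.542, and only that 1 passed. The fit took 1 correlation within embryos, 0.346, for every probe. Embryo means of Hspa1a spread more (pooled SD 0.97) than its twin cells (SD 0.60), so its SE and p-values may be too small. Without pair I of experiment 1 the difference was 2.51, and without pair D of experiment 1 it was 1.27, with no test of either.

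Ordered by embryo mean, Hspa1a ran from -2.55 in pair D and -1.91 in pair L of experiment 1 to -0.25 in pair D of experiment 2. Pair I of experiment 1 followed at -0.06, then pair H at 0.48 and pair G at 0.62. The step of 1.66 between pair L and pair D of experiment 2 was the widest, and the step of 0.64 below it was close to the twin SD of 0.60. The other steps, 0.19, 0.55 and 0.13, were smaller than that SD. That SD rests mostly on pair D of experiment 1, with a twin difference of 1.97 against 0.47 at most in the other pairs. It therefore cannot decide whether these neighbours differ. In experiment 1 the highest embryo was 5.60-fold above the lowest, and in experiment 2 it was 1.82-fold above. Pair D was alone on its slide in each experiment and was the lowest embryo in both, so in these folds embryo and slide cannot be told apart. Between embryos that share a slide, pair I was 3.59-fold above pair L, and pair G was 1.10-fold above pair H.

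The second bright Hspa1a probe gave the same order of cells in experiment 1. Pair D of experiment 1 had -3.28 and -1.53, pair I -0.41 and 0.07, and pair L -2.31 and -1.77. For experiment 2, pair D had -0.65 and -0.47, pair G 0.47 and 0.26, and pair H 0.37 and 0.00. After centring within experiment, the probes correlated over the 12 cells with r = 0.99. The other Hspa1a probes were dim. One was at the floor in all cells of experiment 1 and the other rose above it in 5 of the 12 cells. Hspa1b is nearly identical in sequence and has no probe of its own here, so whether these probes also caught its transcripts was not tested.

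The lowest Hspa1a value, in cell 1 of pair D of experiment 1, fell on the array with the lowest share of spots well above background, 22.1%. Over all cells the centred Hspa1a signal had an r of -0.02 with that share (n = 12 cells of 6 embryos). The experiments leaned opposite ways. In experiment 1 the smallest shares, 22.1% and 29.8%, came with the lowest values, -3.54 and -2.06, and the largest, 41.7%, with -1.76. In experiment 2 the largest shares, 78.8% and 64.3%, came with the lowest values, -0.21 and -0.29. The pooled r therefore cannot say whether Hspa1a followed detection. Pair I, high in Hspa1a, had the lowest summed signal of the 8 genome activation markers, 11.5 and 14 in its cells against 21.4 to 28.0 in the other cells of experiment 1 and 23.6 to 33.2 in experiment 2. Cell 1 of pair I also had the highest stroma and oviduct sums, 96.7 and 56.4. The part of these in the Hspa1a level was not tested.

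Among the constitutive members, Hspa8, the housekeeping Hsp70 of the cytosol, had a lower mean in experiment 2. Pair D of experiment 1 had -1.20 and -0.36, pair I 0.83 and -0.32, and pair L -0.20 and -0.70. In experiment 2, pair D had -0.96 and -1.24, pair G -1.59 and -0.99, and both cells of pair H -1.63. Cell 1 of pair D of experiment 1 fell among the cells of experiment 2, and the other 5 cells of experiment 1 lay above all of them. The difference was -1.01 ± 0.36 (SE), with an adjusted p of 0.124 in limma. The second Hspa8 probe was at the floor in 7 of 12 cells and differed by 0.12.

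Hspa5, known as BiP, the Hsp70 of the endoplasmic reticulum, leaned the other way. Pair D of experiment 1 had -2.62 and -1.0, pair I -0.88 and -1.66, and pair L -1.62 and -0.96. For experiment 2, pair D had -0.29 and -0.71, pair G -1.18 and -0.25, and pair H -1.0 and -1.32. The groups overlapped, with the lowest cell in pair D of experiment 1 beside a twin well above it. The difference of 0.67 ± 0.42 (SE) had an adjusted p of 0.434 in limma.

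Hspa9, mortalin, imports proteins into mitochondria. On its leading probe, pair D of experiment 1 had -2.80 and -1.43, pair I -3.24 and -2.67, and pair L -2.61 and -0.68. In experiment 2, pair D had -0.83 and -0.77, pair G -2.22 and -1.91, and pair H -1.54 and -2.03. It was higher in cell 2 in 5 of 6 embryos, and pair I, high in Hspa1a, was the lowest embryo. The difference between experiments was 0.69 ± 0.54 (SE), with an adjusted p of 0.531 in limma.

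Hspd1 and Hspe1 encode Hsp60 and Hsp10, the barrel and lid of the folding chamber of mitochondria. For Hspd1, pair D of experiment 1 had -1.03 and -0.57, pair I 0.14 and -0.03, and pair L -0.42 and -0.12. For experiment 2, pair D had 1.21 and 0.74, pair G -0.13 and 0.57, and pair H 0.86 and -0.17. Its 4 highest cells were all of experiment 2, and the groups overlapped. The difference was 0.85 ± 0.33 (SE), with an adjusted p of 0.169 in limma.

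For Hspe1, pair D of experiment 1 had -0.50 and 0.03, pair I 0.46 and -0.37, and pair L 0.37 and 1.12. In experiment 2, pair D had 0.43 and 0.21, pair G -0.12 and -0.14, and pair H 0.64 and 0.83. The range of experiment 2 lay inside that of experiment 1, with a difference of 0.12 ± 0.33 (SE) and an adjusted p of 0.853 in limma. Although the genes share a promoter region, their centred signals correlated over the 12 cells of 6 embryos with r = 0.29. The shared region is the one printed above for Hspe1.

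Hspa2, the Hsp70 best known from male germ cells, was dim. Its leading probe was well above background on 10 of 12 arrays and highest in the cells of pair I of experiment 1, at -1.98 and -1.23. The other probe was highest in the cells of pair D of experiment 2, at -1.35 and -1.63, and at the floor in both cells of pair I. The probes disagreed in direction between experiments, with differences of -0.67 and 0.52, and neither passed the test.

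Hsf1, the factor that drives the inducible genes, had a lower mean in experiment 2 on all 3 of its probes, 1 of which passed the test. On that probe, pair D of experiment 1 had 1.27 and 0.98, pair I 0.14 and 0.22, and pair L 1.52 and 1.05. For experiment 2, pair D had -1.02 and -0.22, pair G -0.78 and -1.32, and pair H -1.80 and -1.14. Every cell of experiment 1 lay above every cell of experiment 2. The difference was -1.91 ± 0.35 (SE), a 3.76-fold lower signal, with an adjusted p of 0.00654 in limma. With each array's own floor, with the deposited values and with the percentile over all probes it did not pass, and its adjusted p ranged from 0.00184 to 0.216 over 23 alternatives.

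On the leading Hsf1 probe, pair D of experiment 1 had 1.03 and 1.26, pair I 0.10 and 1.07, and pair L 1.21 and 0.83. In experiment 2 all 6 cells lay between 0.01 and 0.27. Cell 1 of pair I overlapped with these, and the other 5 cells of experiment 1 did not. The difference of -0.81 ± 0.23 (SE) had an adjusted p of 0.0562 in limma. Over 23 alternatives the adjusted p ranged from 0.00336 to 0.683, and only 1 passed, the one without that cell of pair I. The third probe differed by -0.43 ± 0.33 (SE), with an adjusted p of 0.517. Sizes thus ran from -0.43 to -1.91 between probes of the same gene.

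Hsf2, a second factor known from early embryos and germ cells, was at or near the limit of detection. Its leading probe was well above background on 5 arrays and above the floor in 4 cells. These were cell 2 of pair L of experiment 1 at -2.69, the cells of pair D of experiment 2 at -2.88 and -2.96, and cell 2 of pair G at -3.85. Their arrays were 4 of the 5 with the largest shares of spots well above background, at 41.7%, 78.8%, 64.3% and 52.8%. The other, cell 1 of pair H at 46.7%, read at the floor.

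Detection moved with other members too. Centred within experiment, the share of spots well above background correlated over the 12 cells with Hspd1 (r = 0.81), Hsf2 (r = 0.75), Hspa5 (r = 0.71) and Hspa9 (r = 0.65). It did so less with Hspa8 (r = 0.47) and Hspe1 (r = 0.24). The correlation was near 0 with Hspa2 (r = -0.04), Hspa1a (r = -0.02, with opposite leanings in the experiments) and Hsf1 (r = -0.17). These values share their arrays with the detection itself and come from 6 embryos, so they are given without a test.

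**Figure D2:**
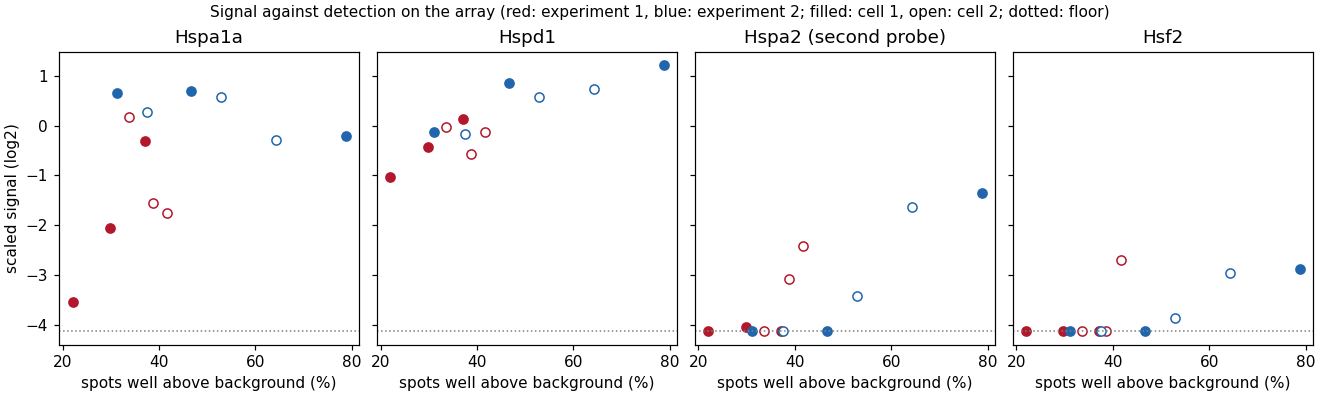
Scaled signal (log2) of 4 probes against the percentage of spots well above background on the same array, 1 point per blastomere; experiment 1 is red, experiment 2 blue, cell 1 filled, cell 2 open, and the dotted line is the floor of -4.12. Hspd1 is higher on arrays with more detection, and the second Hspa2 probe and Hsf2 leave the floor mostly on arrays with high detection. Hspa1a is lowest on the arrays with 22.1% and 29.8% in experiment 1, and on those with 64.3% and 78.8% in experiment 2.

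Between experiments, 1 of the 18 tested member probes passed the threshold in limma, that of Hsf1, against 8.1% of all 16694 tested probes (4.15% lower and 3.95% higher in experiment 2). At an unadjusted p under 0.05 there were 6 of 18, against 19.2% of all. The same Hsf1 probe was the only one of the 18 whose experiments did not overlap, against 7.66% of all probes, 3.97% lower in experiment 2. Of the 8 leading probes tested, 5 were higher and 3 lower in experiment 2. The median difference of all tested probes was 0.19 and shifted with the processing, to -0.82 with another background correction. Of all calls, 48.8% were higher in experiment 2, and this share fell to 12.7% with the percentile over all probes, 25.5% with each array's own floor, 35.2% with a lower floor and 12.1% with the other background correction. Over 23 alternatives the differences of the leading Hspa1a probe stayed between 1.22 and 2.02, and those of the called Hsf1 probe between -2.07 and -1.72.

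**Figure D3:**
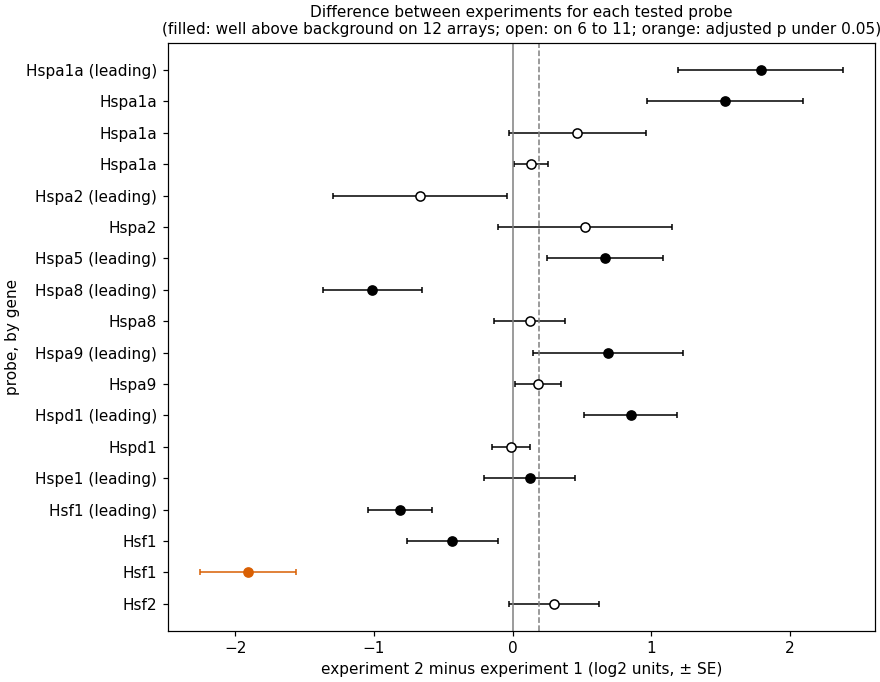
Difference between experiments (experiment 2 minus experiment 1, log2 units) of each of the 18 tested probes, with its standard error from limma; filled points were well above background on all 12 arrays, and the orange point is the probe with an adjusted p under 0.05. The dashed line is the median of all tested probes, 0.19, the 2 bright Hspa1a probes lie farthest to the right and the called Hsf1 probe at -1.91 farthest to the left.

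To set inducible against constitutive members, the mean of the 5 constitutive genes measured on all 12 arrays was taken off Hspa1a in each embryo. This restriction was made with the values in view. Centred on the mean of the 6 embryos, the result was -1.49 in pair D, 0.62 in pair I and -1.42 in pair L of experiment 1. It was -0.12 in pair D, 1.32 in pair G and 1.09 in pair H of experiment 2. The difference between experiments was 1.53, with an SD between embryos of 1.01 (n = 3 in each experiment), and the embryos of the experiments overlapped. The constitutive genes did not move as a block, since their own differences ran from -1.01 for Hspa8 to 0.85 for Hspd1. Over the 12 cells of 6 embryos, the centred Hspa1a signal correlated with Hspa8 at r = 0.55, with Hspa5 at r = 0.41 and with Hspd1 at r = 0.40. With Hspe1 it was r = 0.06, with Hspa9 r = -0.27 and with Hsf1 r = -0.34.

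Among embryos of the same experiment, 0 of the 18 member probes passed in limma's F test, against 1.4% of all tested probes, and 7 of 18 had an unadjusted p under 0.05, against 29.8% of all. Hspa1a came to an adjusted p of 0.112 on its leading probe and 0.110 on its second, and the range over all member probes was 0.0918 to 0.764. Without cell 2 of pair D of experiment 1 that embryo has 1 cell and the widest Hspa1a twin difference, 1.97, leaves the test. Such a fit is therefore not used here to judge the leading Hspa1a probe. The SD of its 3 embryo means was 1.29 in experiment 1, where 1.23% of the 5858 probes measured on all 12 arrays had a larger one. In experiment 2 it was 0.47, and 43.8% of the probes had a larger one. Whether the spread differed between experiments was not tested. The leading Hsf1 probe lay at the other end, with SDs of 0.29 and 0.13, below 72.6% and 92.2% of the probes. Its other probes did not. The called Hsf1 probe had SDs of 0.60 and 0.43, with 27.8% and 49.7% of the probes larger. The third had SDs of 0.48 and 0.33, with 41.6% and 63.2% larger.

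Between the cells of an embryo, 0 of 18 member probes passed in limma, as did 0% of all tested probes, and 0 of 18 had an unadjusted p under 0.05, against 4.41% of all. The lowest adjusted p was 0.674. Hspa1a differed between cell 2 and cell 1 by 1.97, 0.47 and 0.31 in pairs D, I and L of experiment 1. In experiment 2 the differences were -0.08, -0.09 and -0.40 in pairs D, G and H. All 3 were above 0 in experiment 1 and below 0 in experiment 2, and 1.59% of all tested probes had such opposite signs, in either direction. The second probe did not share the pattern, being higher in cell 2 of pair D of experiment 2. The difference of these contrasts was -1.11 ± 0.49 (SE), with an adjusted p of 0.986 in limma. No probe of the array passed that test (0%), and 2 of 18 member probes had an unadjusted p under 0.05, against 5.27% of all. These were the second Hspa1a probe, at -1.05 ± 0.42 (SE) with an adjusted p of 0.945, and that of Hspa9, at -1.33 ± 0.43 (SE) with an adjusted p of 0.912.

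The twin SD, a spread of single cells, was 0.60 for Hspa1a, mostly from pair D of experiment 1. Of the 5858 probes, 32.6% had a larger one. For the other members the twin SD was 0.72 for Hspa9, 0.63 for Hspa5, 0.47 for Hspa8, 0.42 for Hspd1, 0.37 for Hspe1 and 0.31 for Hsf1. The median over the 5858 probes was 0.49.

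**Figure D4:**
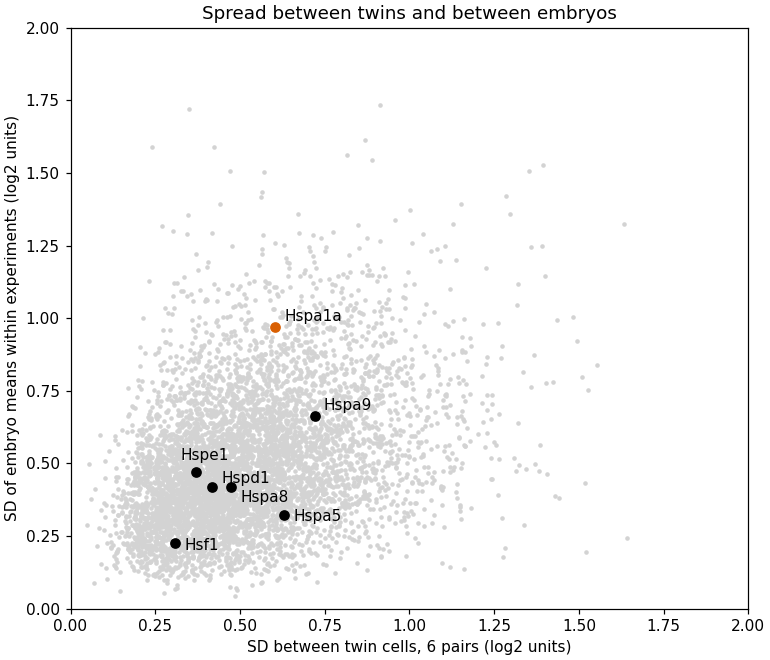
SD of embryo means within experiments against the SD between twin cells (log2 units) for the leading probes of 7 members (black, Hspa1a orange) and for all 5858 probes detected on the 12 arrays (grey). An embryo mean averages 2 cells, so the axes are not on equal terms; Hspa1a lies at a twin SD of 0.60 and an embryo SD of 0.97.

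The rest of the chaperone system was followed in 8 lists of 98 genes, 84 of which were tested. Between experiments 4 of 84 passed in limma (4.76%, against 8.1% of all probes), 3 higher and 1 lower in experiment 2, and none passed among embryos, between cells or in the difference of cell contrasts. Dnajb9, a J-domain partner of BiP, was 1.72 ± 0.37 (SE) higher, with an adjusted p of 0.0141. Of the co-chaperones, Bag5 was 1.87 ± 0.46 (SE) higher with an adjusted p of 0.0265, and Bag6 differed by -1.18 ± 0.27 (SE) with an adjusted p of 0.0207. Tcp1, a subunit of the cytosolic chaperonin TRiC, was the one of these 4 that passed the filter through experiment 2. Its mean was -4.08 ± 0.11 (SD, n = 6 cells of 3 embryos) in experiment 1, at or near the floor and well above background on 2 of 6 arrays, and -1.82 ± 0.34 (SD, n = 6 cells of 3 embryos) in experiment 2. Its adjusted p was 0.000132 in limma, but the size and error of its difference are set by the floor, and its other probe did not pass.

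By list, the median difference between experiments was -0.60 over the 3 tested Hsp90 genes, -0.41 over 6 further Hsp70 and Hsp110 genes and -0.18 over 6 small heat shock proteins. It was 0.11 over 21 J-domain proteins, -0.0043 over 19 co-chaperones, 0.12 over 15 genes of folding and stress in the endoplasmic reticulum and 0.32 over 13 of TRiC and prefoldin, beside 0.19 over all tested probes. Within lists where no gene passed, the smallest p belonged to Hsp90aa1, the inducible cytosolic Hsp90, at -0.60 ± 0.19 (SE), to Hspb1, a small heat shock protein that holds unfolded proteins, at -1.25 ± 0.38 (SE), and to Atf4, a stress transcription factor, at 1.75 ± 0.50 (SE). Their adjusted p-values in limma were 0.0857, 0.0707 and 0.0554. Hspa14, an Hsp70 of the ribosome, differed by 1.08 ± 0.42 (SE) with an adjusted p of 0.165, and Hsbp1, which binds heat shock factor 1, by -0.12 ± 0.22 (SE) with an adjusted p of 0.783.

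In the other comparisons no gene of these lists passed. Among embryos, the gene with the smallest p of its own list was Bag5 for the co-chaperones, with an adjusted p of 0.0547 in limma. It was Dnajc5 at 0.0817, Pfdn6 at 0.0835 and Hspb9 at 0.0933 in their lists, which gives no order over all genes of the lists. Between cells the lowest adjusted p in any list was 0.674.

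The genes whose signal was most like that of Hspa1a were sought among 4753 named genes measured on all 12 arrays, by Pearson's r over the 12 cells after centring within experiment. They were Stbd1 (r = 0.85), Plaat3 (r = 0.84), B4galt3 (r = 0.83), Lbx2 (r = 0.81) and Mtmr9 (r = 0.81). None is a member or belongs to the chaperone lists. In experiment 2 alone the likeness was r = 0.69 for Stbd1 and 0.70 for Plaat3, and 0.08 for B4galt3, beside 0.89, 0.89 and 0.90 in experiment 1. Hspa8 stood highest of the members, with 3.96% of the compared genes above it.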

How the data were processed

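Array intensity was measured in 12 single blastomeres. Per the file headers, the authors extracted the deposited intensity values with Agilent Feature Extraction 9.1.3.1, which subtracts background. The deposited value table is the same intensity divided by 1 constant per array, with low values raised to a floor, and served as an alternative. Only the channel whose spots were above background was used.

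Outlier spots were left out and spots of a probe averaged. A probe counted as well above background where at least 1 in 2 of its spots did. Requiring a majority was also tried, and the first rule was kept after seeing that it matched an earlier count of probes on all 12 arrays (5858; 5857 by majority). Signals were divided by the array's 75th percentile over these 5858 probes, raised to a common floor of 0.0574, and taken to log2. Tests covered the 16694 probes without missing values that met this rule on 6 or more arrays, with limma 3.58.1 in R 4.3.3 and a Benjamini-Hochberg threshold of 0.05. The experiment was fitted with embryo as a random block, embryos by an F test within experiments, and cell number with embryo as a fixed block. The random block used 1 correlation within embryos, 0.346, for all probes. P-values measure the spread between these cells, and 3 embryos per experiment limit the precision. Probe names came from accessions for 22951 probes and from the files for 11758.

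Members, lists and tests were chosen with earlier results of these data known. All members are named; of each list, up to 3 passing genes per comparison or else the smallest p; and the 5 genes most like Hspa1a. On simulated data with 16694 probes, the fits recovered 59 of 100 probes with a 4-fold change between experiments, 72 between cells, 29 between embryos and 0 for the difference of cell contrasts; for 2-fold changes these were 34, 35, 4 and 0. Unchanged probes called there numbered 11, 5, 3 and 0 in the same order. In the simulation between experiments, cells of an embryo were less alike than in the data, so that recovery may be overstated. Scaling, background, floor, filter, block and left-out cells were varied. One gene is not reported here.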

Additional observations from a re-analysis of the deposited data

Results flagged for a closer look

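Of 9 members checked, Hspa1a alone drew attention. On its leading probe the cell 2 minus cell 1 differences were all above 0 in experiment 1 and all below 0 in experiment 2. The difference of these contrasts was -1.11, with an adjusted p of 0.986 in limma. Such opposite signs were seen in 1.59% of all tested probes. The second Hspa1a probe did not share them, at 0.18 in pair D of experiment 2.

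Of 18 sets of 6 cells, each a leading probe in 1 experiment, 2 had a cell that stood apart from the others, and chance marks about 1 in 20. The leading Hsf1 probe was lowest in cell 1 of pair I of experiment 1, at 0.10, with the next cell at 0.83. The leading Hsf2 probe was highest in cell 2 of pair L of experiment 1, at -2.69, with the other 5 cells at the floor of -4.12. For values raised to a floor, as in this set, the rate of 1 in 20 does not apply.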

How the results depend on the processing

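Between experiments, 1 member probe passed, and 0 did with the percentile over all probes, the deposited values or each array's own floor. With probes measured on all 12 arrays, where fewer probes are tested, 3 passed, adding both bright Hspa1a probes. Leaving out 1 cell gave 1 to 2, with 2 without cell 1 of pair I of experiment 1. Over the array, 1353 probes passed, and 173, 703 and 368 did under the first 3 of these settings, 596 with a lower floor, 530 with normexp, and 796 to 1564 without 1 cell, the lowest without cell 1 of pair L of experiment 1.

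Among embryos, 0 member probes passed, but 2 did in experiment 2 alone, 4 with each array's own floor, 1 with no filter, 5 with normexp and 0 to 3 without 1 cell. The 3 came without either cell of pair L of experiment 1. Over the array, 234 passed, and 1 with the deposited values, 14 with embryos that share a slide, 0 in experiment 1 alone, 784 in experiment 2 alone, 4356 with each array's own floor, 2 with a lower floor, 2752 with no filter, 5832 with normexp, 134 with quantile normalization, 30 with probes on all 12 arrays, and 0 to 3875 without 1 cell. The count was 0 without either cell of pair H and highest without cell 1 of pair L of experiment 1. Leaving out 1 cell leaves its embryo with a single cell and takes its twin difference out of the error of the test. The cause of these shifts was not tested.

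Cell numbers are shared between embryos. Their twin difference profiles correlated between -0.08 and 0.26, over 0.1 in 3 of 15 pairs of embryos and below 0 in 9. Whether the numbers pair the samples was not tested, and the main fits between experiments and among embryos left cell number out. With cell number as a replicate block, 1 member probe and 1192 probes passed between experiments, and 0 and 0 among embryos.

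Cell number and the difference of cell contrasts gave 0 calls in every alternative run. The inducible against constitutive difference of 1.53 ran from 1.14 to 1.70, where leaving out cells was chosen after seeing the data. The majority rule for spots, also tried after seeing the data, gave 1354 calls between experiments and 233 among embryos, with the same number of member probes called. Detection limits Hspa2 and Hsf2, whose signals sat at the floor on many arrays.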
